A study of Mus musculus with 4 samples.

Results

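Mme, B2m, Cd3e and Cd8a encode surface proteins best known from immune cells, and their transcripts were measured here in cultured muscle-derived stem cells (MDSCs) of 4 mouse genotypes. The genes were chosen by symbol, as 4 of the 268 genes and 6 of the 274 gene spots of a membrane array for stem cell-related genes. B2m has 3 spots and the other 3 genes have 1 spot each. All 4 symbols were found on all 4 arrays.

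Each array was hybridized with RNA from MDSCs of male mice, obtained from hind limb muscle by preplating, with the background strain labelled C57BL/6J in all cases. The WT mice were wild type, the Mst KO mice carried the Mst-/- genotype and lack myostatin, an inhibitor of muscle growth, and the mdx mice, a dystrophin-deficient model of muscular dystrophy, had the genotype labelled 10ScSn-Dmdmdx. The paper's methods write the strain of the mdx mice as C57BL/6/10ScSn-Dmdmdx. The Oct4 transgenic mice carried the promoter of Oct4 with a reporter, and neither the reporter nor the line is described further. The paper's methods describe Sca1 selection of the cells and culture over many passages for the cultures it reports, and state that RNA of 3 flasks was pooled for an array. A flask pool is 1 sample, so there was 1 array per MDSC type, no spread between cultures could be estimated, and no test was run. For the Mst KO line, kept on BL/6, the paper's methods name Balb/c as the strain of origin. The Mst KO, mdx and Oct4 transgenic cells differ from WT cells by donor and culture history as well as by genotype. The Mst KO and mdx cells may also differ from WT cells by strain. These differences cannot be told apart here.

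Mme is neprilysin, also called CD10, a zinc endopeptidase of the cell surface that cleaves small peptides such as enkephalins. In humans it is used as a marker of precursor B cells, and it is also made by stromal cells and fibroblasts. B2m, beta-2 microglobulin, is the light chain that class I major histocompatibility molecules need to reach the surface of almost every nucleated cell, where they present peptides to CD8 T cells. Cd3e is a signaling chain of the T cell receptor complex, which also holds Cd3d, Cd3g and Cd247, and Cd8a is the alpha chain of the CD8 co-receptor, which pairs with itself or with the beta chain from Cd8b1.

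The level given below is the normalized spot intensity as deposited, on a linear scale without unit: the raw spot minus the lowest spot of the array, divided by 1 factor per array. The authors' software called between 126 and 136 of the 268 genes present on an array, and 112 were present on all 4. The lowest level of a present gene was 0.697 on the WT array, 0.753 on Mst KO, 0.898 on mdx and 0.828 on Oct4 transgenic, while the highest absent genes reached 1.14, 0.847, 1.37 and 1.82, so the calls and levels overlapped. Of the markers used to check the cell type, Cd44, Des, Myod1, Myf5 and Cdh15 were present on all 4 arrays, with a summed level of 38.4 in WT and 12.9 to 15.3 in the others. The endothelial genes Cdh5 and Kdr were absent on all 4. B2m, Cd3e and Cd8a were present on all 4 arrays, and Mme was present on the Mst KO and mdx arrays and absent on the WT and Oct4 transgenic arrays.

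**Figure D1:**
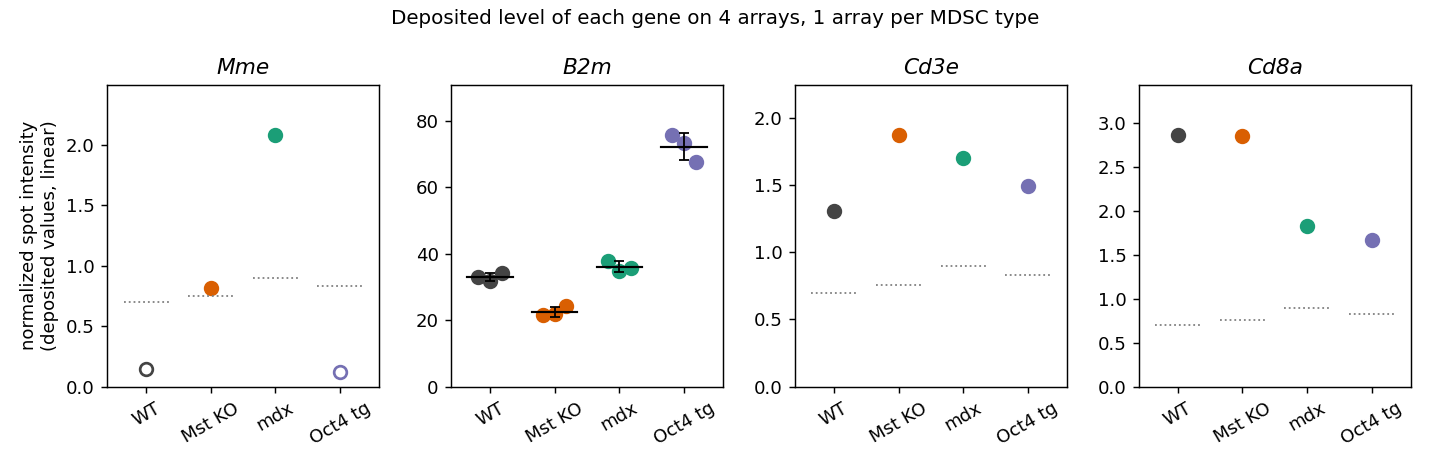
Deposited level (normalized spot intensity, linear, no unit) of Mme, B2m, Cd3e and Cd8a on the WT, Mst KO, mdx and Oct4 transgenic (tg) arrays, with filled points for present and open points for absent spots. For B2m the 3 spots are shown with their mean and SD; the dotted lines give the lowest present level of each array. Mme stands above that line in Mst KO and mdx, and B2m is highest in Oct4 tg.

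Mme had a level of 0.148 in WT, 0.818 in Mst KO, 2.08 in mdx and 0.118 in Oct4 transgenic MDSCs. In raw intensity the spot read 247, 486, 822 and 244 in the same order, against a local background around the spot of 233, 237, 278 and 242. The spot was thus 1.06 times its surroundings on the WT array and 1.01 times on the Oct4 transgenic array, where it was called absent, and 2.05 times in Mst KO and 2.95 times in mdx.

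The mdx array was the clear high point for Mme. The level there was 14.1-fold that of WT (log2 ratio 3.82). The WT spot was absent, and with it raised to the lowest present level of its array mdx was 2.99-fold higher. Against Oct4 transgenic MDSCs, mdx was 2.51-fold higher with the same setting (log2 ratio of Oct4 transgenic over mdx as deposited, -4.14). These folds are not strict lower bounds, because absent genes reached 1.14 on the WT array and 1.82 on the Oct4 transgenic array. The Mme spot was present in both mdx and Mst KO, and was 2.54-fold higher in mdx (log2 ratio 1.35).

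The Mst KO level of Mme lay close to the limit of detection. Its 0.818 lay between 0.753 for the lowest present gene and 0.847 for the highest absent gene of that array, and its raw 486 was above 455 for the brighter of the blank spots. The deposited values put Mst KO 5.54-fold over WT (log2 ratio 2.47), but with the absent WT spot at the lowest present level it was only 1.17-fold. Against Oct4 transgenic MDSCs the log2 ratio of Oct4 transgenic over Mst KO was -2.79 as deposited. No fold is given, because with the absent spot raised in the same way the fold fell under 1. Mme was absent on both the WT and the Oct4 transgenic array, so no ratio is given between them.

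The neighbors of the Mme spot on the membrane, Mfng, Ms4a1, Kitl and Ncam1, read at most 600 in raw intensity on any array. Ncam1 read 600 in WT, 525 in Mst KO, 459 in mdx and 506 in Oct4 transgenic MDSCs. It was brighter than the Mme spot on every array except mdx. An effect of neighboring spots on Mme was not tested. The other surface peptidases on the array were Anpep, the aminopeptidase CD13, and Adam17, a protease that sheds surface proteins. Anpep was absent on all 4 arrays, at 0.420 in WT, 0.586 in Mst KO, 0.571 in mdx and 0.371 in Oct4 transgenic MDSCs. Adam17 was present on all 4, at 5.20, 9.43, 6.07 and 5.26, with its highest level in Mst KO and not in mdx.

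Mme was also placed in the list of B cell surface genes, and a B cell origin of its signal was not tested. Ms4a1, the gene of CD20 on B cells, was absent on all 4 arrays, at 0.178 in WT, 0.194 in Mst KO, 0.168 in mdx and 0.240 in Oct4 transgenic MDSCs. As deposited, mesenchymal markers, like Mme, were highest in mdx and next highest in Mst KO, except Thy1. For Mme the second rank of Mst KO rests on a spot close to the limit of detection. With absent spots raised to the lowest present level, its log2 ratio of Oct4 transgenic over Mst KO was 0.018. Pdgfra, a growth factor receptor of fibroblasts, had levels of 2.90 in WT, 19.7 in Mst KO, 37.5 in mdx and 9.56 in Oct4 transgenic MDSCs, and Col1a1, a chain of type I collagen, had levels of 32.2, 55.0, 105 and 30.1. The summed level of the 4 mesenchymal markers on the array (Pdgfra, Cdh11, Col1a1 and Thy1) was 43.0 in WT, 141 in Mst KO, 212 in mdx and 63.0 in Oct4 transgenic MDSCs, with 3, 4, 3 and 4 of them present; their part in the Mme result was not tested. In RNA of whole cultures, fewer cells that express a gene and less of its RNA per cell cannot be told apart.

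Among the 148 other genes present on at least 1 array, those with a pattern over the 4 arrays most like that of Mme were Cdk2, Col1a1 and Cdk4, with distances of 0.43, 0.63 and 0.65. The distance is taken between the centered log2 levels of the 4 arrays. Levels under the lowest present level of an array were raised to it. The median distance over all 148 genes was 1.41 for Mme. Cdk2, a cell cycle kinase, had levels of 1.06 in WT, 1.63 in Mst KO, 2.78 in mdx and 1.41 in Oct4 transgenic MDSCs. With 4 points this is a description of the arrays.

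B2m was highest in Oct4 transgenic MDSCs. Its 3 spots read 75.6, 73.4 and 67.7 there, 33.0, 31.8 and 34.3 in WT, 21.4, 21.9 and 24.2 in Mst KO, and 37.9, 34.6 and 35.7 in mdx. The means were 72.2 ± 4.10 in Oct4 transgenic, 36.1 ± 1.67 in mdx, 33.0 ± 1.27 in WT and 22.5 ± 1.46 in Mst KO MDSCs (SD, 3 spots of 1 membrane). The spots of the 4 arrays did not overlap, and the order was Mst KO, WT, mdx and Oct4 transgenic.

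The spread between B2m spots was small on each membrane, with a highest over lowest spot of 1.08-fold to 1.13-fold. It covers printing and scanning of 1 hybridization and not the variation between cultures. The gap between WT and mdx was the narrowest, with the highest WT spot at 34.3 and the lowest mdx spot at 34.6. No single spot position was the brightest on all arrays.

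In Oct4 transgenic MDSCs B2m was 2.19-fold over WT (log2 ratio 1.13), and the 9 pairs of spots gave 1.97-fold to 2.38-fold. Over Mst KO the difference was 3.21-fold (log2 ratio 1.68), which was the largest of the 6 pairs of arrays for B2m. Over mdx it lay on the line of the 2-fold threshold, with 1.78-fold to 2.18-fold over the pairs of spots.

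The remaining B2m differences stayed under 2-fold. B2m was 1.47-fold lower in Mst KO than in WT (log2 ratio -0.55, pairs of spots -0.68 to -0.39). It was 1.60-fold higher in mdx than in Mst KO (log2 ratio 0.68). Between mdx and WT the log2 ratio was 0.13, with pairs of spots from 0.01 to 0.26.

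B2m serves on this array as one of its housekeeping genes, and the 4 others give a reference for its shifts. In Oct4 transgenic over WT, the log2 ratio was 0.31 for Gapdh, a glycolytic enzyme, 0.11 for Ppia, cyclophilin A, 0.51 for Hsp90ab1, a chaperone, and 0.27 for Rps27a, a ubiquitin and ribosomal fusion gene, against 1.13 for B2m. All 5 were higher in Oct4 transgenic MDSCs as deposited, and B2m by the widest margin. In Mst KO over WT all 5 were lower as deposited, with -0.20, -0.25, -0.20 and -0.49 in the same order and -0.55 for B2m. Scaling to the 4 other genes removes their mean shift by construction and left B2m at -0.27 in Mst KO and 0.83 in Oct4 transgenic over WT.

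**Figure D2:**
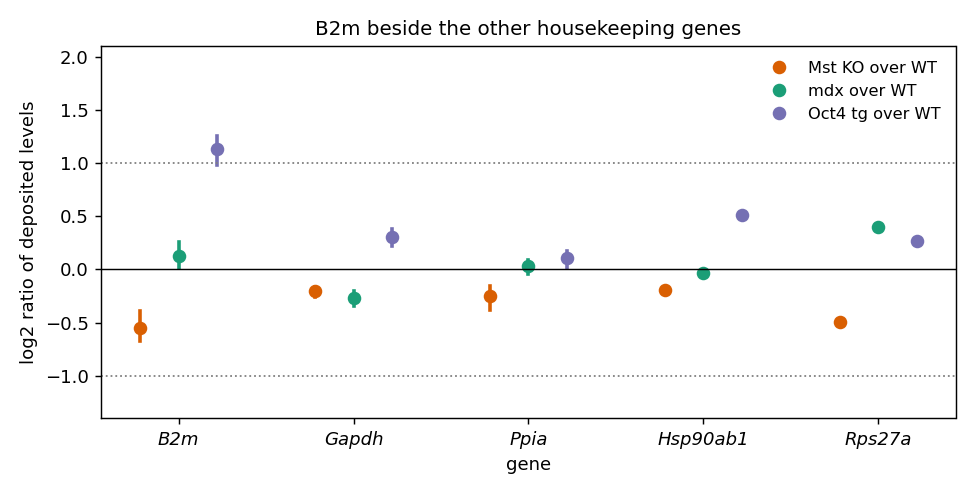
Log2 ratio over WT of the deposited levels of B2m and 4 other housekeeping genes (horizontal axis) for Mst KO, mdx and Oct4 tg MDSCs; bars give the range over the 9 pairs of spots for genes with 3 spots, and the dotted lines mark 2-fold. B2m in Oct4 tg (1.13) stands above the other 4 genes (0.11 to 0.51).

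The 2-fold difference of B2m depended on how the arrays were scaled. The log2 ratio of Oct4 transgenic over WT was under 2-fold with the 4 other housekeeping genes as the scale, with Gapdh alone (0.82), with quantile normalization (0.77), and without background correction on the scale of the 4 other housekeeping genes (0.82). Against mdx it was 0.42 with Gapdh alone. Under no alternative did B2m cease to be higher in Oct4 transgenic MDSCs than in WT, Mst KO or mdx, whereas mdx over WT was -0.02 with quantile normalization and up to 0.48 with a local background.

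**Figure D3:**
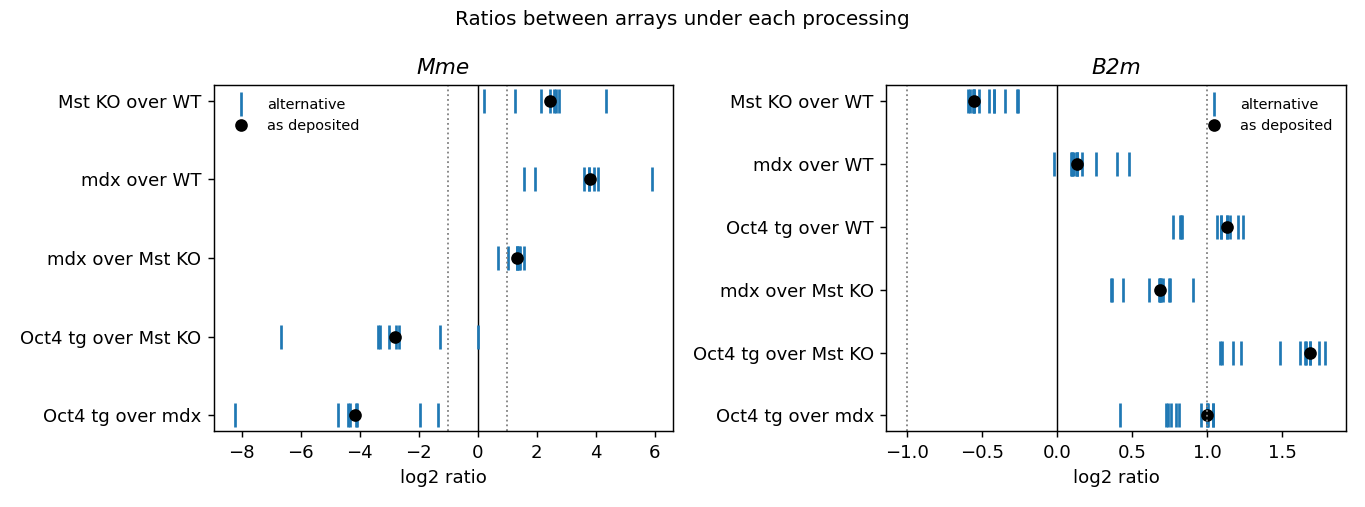
Log2 ratios of Mme (left) and B2m (right) between pairs of arrays, as deposited (black points) and under each alternative processing (blue ticks), with dotted lines at 2-fold. The Oct4 tg ratios of B2m stay above 0 throughout, and the Mme ratio of Mst KO over WT runs from 0.23 to 4.35.

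B2m was the 1 gene of the class I antigen presentation list, of 14, that the array held, so heavy chains, transporters and chaperones of that pathway are not analysed here. The genes closest to B2m in pattern were Pdgfa, Aldh1a1 and Rhob, with distances of 0.42, 0.48 and 0.51 (median over 148 genes 1.28). Pdgfa, a growth factor ligand, was present on all 4 arrays, at 6.97 in WT, 6.25 in Mst KO, 7.05 in mdx and 14.0 in Oct4 transgenic MDSCs. Like B2m it was highest in Oct4 transgenic and lowest in Mst KO. Aldh1a1, a retinaldehyde dehydrogenase, was present only on the Oct4 transgenic array, at 1.98, and Rhob was absent in Mst KO and mdx. Unlike B2m, Aldh1a1 and Rhob had their lowest deposited levels in mdx, at 0.316 and 0.426. In the distance, Aldh1a1 was raised to the lowest present level on the WT, Mst KO and mdx arrays, and Rhob on the Mst KO and mdx arrays. The closeness of Aldh1a1 thus rests on its level in Oct4 transgenic MDSCs and on these limits.

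Cd3e and Cd8a were present on all 4 arrays and differed by less than 2-fold in all 6 pairs of arrays as deposited. The level of Cd3e was 1.31 in WT, 1.87 in Mst KO, 1.70 in mdx and 1.49 in Oct4 transgenic MDSCs. The level of Cd8a was 2.86, 2.85, 1.82 and 1.67. Cd3e was lowest in WT as deposited, but its log2 ratio of Oct4 transgenic over WT, 0.19, turned to -0.12 with Gapdh alone, to -0.11 with the 4 housekeeping genes other than B2m and to -0.04 with that scale and no background correction. Cd8a was high in WT and Mst KO and lower in mdx and Oct4 transgenic MDSCs.

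Both genes have a single spot, so the spread of a repeat spot is unknown for them. For Cd3e the widest log2 ratio was 0.52, in Mst KO over WT (1.43-fold), followed by 0.38 in mdx over WT. For Cd8a it was -0.78 in Oct4 transgenic over WT (1.71-fold lower), close to -0.77 in Oct4 transgenic over Mst KO, and -0.65 in mdx over WT (1.57-fold lower). With Gapdh alone as the scale, Cd8a in Oct4 transgenic over WT was -1.08, past 2-fold, and with the 4 housekeeping genes other than B2m it was -1.07. The Cd8a levels of WT and Mst KO could not be ordered, with a log2 ratio of -0.01.

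The raw spots of both genes stood above their surroundings. Cd3e read 676 in WT, 867 in Mst KO, 704 in mdx and 651 in Oct4 transgenic MDSCs, which was 2.77, 2.68, 1.90 and 2.17 times the local background. On that scale Cd3e was highest in WT, the array with its lowest level, with a local background of 244 in WT and 370 in mdx. Cd8a was 3.53, 3.26, 2.57 and 2.35 times its local background, in the same order of arrays as its level. In Oct4 transgenic MDSCs the levels of both genes, 1.49 and 1.67, were called present but lay under the highest absent gene of that array.

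The other genes of the T cell surface list that the array held were not detected. They were Cd3d, Cd3g and Cd247 of the receptor complex, Cd8b1 of the CD8 co-receptor, and Cd4, the co-receptor of helper T cells, and all 5 were absent on all 4 arrays, at levels from 0.00333 to 0.640. Their raw spots were 0.839 to 1.27 times the local background. Cd3d, which pairs with Cd3e in the receptor complex, had levels of 0.00333 in WT, 0.267 in Mst KO, 0.640 in mdx and 0.115 in Oct4 transgenic MDSCs, all called absent. The summed level of these 5 genes was 0.559, 1.81, 1.86 and 0.866 in the same order, and no order is read from spots called absent.

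Ptprc, the CD45 gene that marks nearly all leukocytes, was absent on all 4 arrays too, at 0.0472 in WT, 0.505 in Mst KO, 0.440 in mdx and 0.0804 in Oct4 transgenic MDSCs. It was the 1 marker of other leukocytes that the array held, out of 6 listed. Outside the lists and chosen after its values were seen, Ptcra, which encodes the pre-T cell receptor alpha chain of developing T cells, was present on all 4 arrays, at 3.24, 2.93, 2.99 and 4.81. Its raw spot was 2.70, 2.40, 2.88 and 3.68 times the local background in the same order.

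**Figure D4:**
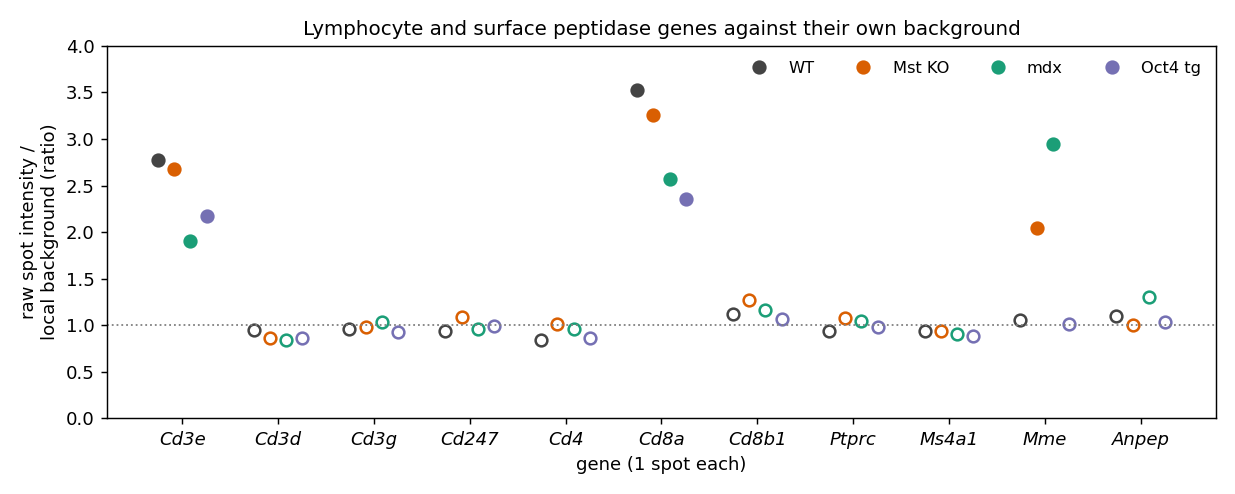
Raw spot intensity divided by the local background of the same spot (vertical axis, ratio) for 11 lymphocyte and surface peptidase genes (horizontal axis) on the 4 arrays, with filled points for present and open points for absent spots and a dotted line at 1. Cd3e and Cd8a stand at 1.90 to 3.53 on every array, while the other T cell genes shown, Ptprc and Ms4a1 lie near 1. Ptcra is not shown.

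The neighbors of Cd3e on the membrane, Cd3d, Cd3g, Bmper and Cdh12, read at most 601 in raw intensity on any array. The Cd8a spot sat beside Cd44, Cd8b1, Ccna2 and Cdh4, of which Cd44 read up to 1191. Cd44, the hyaluronan receptor and a marker of MDSCs, had its highest level in Oct4 transgenic MDSCs, at 3.31, against 1.81 in Mst KO, 1.60 in WT and 1.15 in mdx. Ccna2 read 872 in WT, 500 in Mst KO, 343 in mdx and 673 in Oct4 transgenic MDSCs in raw intensity. An effect of neighboring spots on Cd8a was not tested.

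For Cd3e the genes of closest pattern were Fgf14, Myc and Neurog2, with distances of 0.12, 0.13 and 0.18 (median 0.72). Neurog2 was present only in Mst KO, at 0.881, and its levels on the other arrays were raised to the lowest present level. Its closeness thus rests mostly on these limits. Fgf14 was absent in Oct4 transgenic MDSCs and was raised there. Myc, a transcription factor of cell growth, was present on all 4 arrays at 12.4 in WT, 18.1 in Mst KO, 15.0 in mdx and 12.9 in Oct4 transgenic MDSCs. For Cd8a the genes of closest pattern were Ccnd3, Numb and Gjb2, with distances of 0.29, 0.33 and 0.38 (median 0.93). Numb was absent in mdx and Oct4 transgenic MDSCs and was raised on both arrays. Ccnd3, cyclin D3, had levels of 12.4, 10.7, 8.96 and 7.73.

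Across the 6 pairs of arrays, 1 or 2 members passed 2-fold among those called present on either array. For Mst KO and WT it was 1 of 4, Mme, where 16.7% of the 144 genes compared passed. Mme entered this count only through the array where it was present, and the count was 0 with absent spots set to the lowest present level or with genes present on both arrays. For mdx and WT it was 1 of 4, again Mme, where 21.7% of 143 passed, and 0 with genes present on both arrays. For Oct4 transgenic and WT it was 1 of 3, B2m, where 21.5% of 144 passed. For mdx and Mst KO it was 1 of 4, Mme, against 6.43% of 140 genes. For Oct4 transgenic it was 2 of 4, Mme and B2m, both against Mst KO, where 17.6% of 142 genes passed, and against mdx, where 19.0% of 137 passed. Mme was absent in Oct4 transgenic MDSCs and entered both counts through the other array: with genes present on both arrays 1 member, B2m, was left in each, and against Mst KO the count was also 1 with absent spots set to the lowest present level, where Mme has no fold. These comparisons share arrays, and with 4 genes a share of 1 in 4 cannot be set apart from the background of each pair.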

How the data were processed

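Total RNA of 4 MDSC cultures was labelled with biotin and hybridized to 4 GEArray membranes of 24 rows and 12 columns of oligonucleotide spots, 1 per MDSC type; the labels name cRNA and the paper's methods cDNA. The deposited intensity values are normalized by the authors: raw spot minus the lowest spot of the array, over the average that the 144 spots of middle rank had after this subtraction, a relation checked on every array. The paper's methods name housekeeping genes instead. The factors were 297 to 370, and raw intensities ran from 178 to 61071. The absent or present calls are the authors', with a threshold of 1.5. The 3 deposited ratio columns hold the authors' own comparisons and were not used.

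Spots of a gene were averaged. A gene entered a pair if either array called it present, and 2-fold or more counted as different. Where 1 array was absent, a fold is also given with the absent spot raised to the lowest present level, which is not a strict lower bound. The log2 SD between spots was 0.056 for the 3 genes with 3 spots and is unknown for all others. Precision is limited by the number of arrays. The named genes are the members, the members of the lists that the array holds, and for each member the 3 genes of closest pattern; 1 gene of the lists is left out of all lists and is not reported here. The members, lists and rules were chosen with earlier results of these data known. Array accessions of 3 of the 4 members were found in the RefSeq table; that of Cd8a was not, and its name is the array's. The counting was tested on simulated data. Alternatives were other scalings and backgrounds, raised absent values, B2m without each spot, other thresholds and filters, and the rounded series table. Python 3.11.15, numpy 2.4.6, pandas 2.3.3 and matplotlib 3.10.9 were used.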

Additional observations from a re-analysis of the deposited data

How the results depend on the processing

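Of the 23 log2 ratios of members, 19 kept their sign under all alternatives run. The Mme ratio of Oct4 transgenic over Mst KO turned from -2.79 to 0.018 with absent spots set to the lowest present level. The signs of Cd8a in Mst KO over WT, Cd3e in Oct4 transgenic over WT and B2m in mdx over WT changed under 6, 3 and 1 alternatives, respectively. The count of members past 2-fold was 0 in place of 1 for Mst KO and WT with absent values raised or with genes present on both arrays. For mdx and WT it was 0 with genes present on both and 2 at 1.5-fold. For Oct4 transgenic and WT it was 0 with quantile normalization, without background correction on the scale of 4 housekeeping genes, or at 3-fold, and 2 at 1.5-fold. For mdx and Mst KO it was 0 with that same setting of background and scale together or at 3-fold, and 3 at 1.5-fold. For Oct4 transgenic and Mst KO it was 1 in place of 2 with absent values raised or with genes present on both. For Oct4 transgenic and mdx it was 1 in place of 2 under all 4 rescalings, that same setting, a local background, without the second B2m spot, at 3-fold and with genes present on both. The other 82 of 104 counts, which include counts of members called present on an array, stayed within 1.5 times. A rise from 2 to 3 for Oct4 transgenic and Mst KO falls within that limit. So does a rise from 3 to 4 members called present on the WT and Oct4 transgenic arrays, with a raw spot above its local background. The cause was not tested. Scaling to 4 housekeeping genes moved the median ratio of genes present on both arrays from -0.03 to -0.61 for Oct4 transgenic over Mst KO, and from 0.01 to -0.29 over WT. With Gapdh alone or 4 housekeeping genes, the 1 member past 2-fold in Oct4 transgenic over WT was Cd8a (-1.08 and -1.07) and not B2m, and Cd8a over Mst KO was down to -1.36. No paired analysis was possible because each MDSC type has 1 array. The Mme spot in Mst KO read 486 in raw intensity, close to 455 for the brighter blank spot. On the scale of the local background they differed, with 2.05 times for Mme and 0.779 times for that blank.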

Other observations

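Of the 7 other surface markers of stem and stromal cells on the array, Kit, Prom1 and Cxcr4 were absent on all 4 arrays, and Cd44, Pdgfra and Ncam1 were present on all 4. Ncam1, a cell adhesion molecule, ranged from 0.908 in mdx to 1.10 in WT. Thy1, the CD90 gene, was present in Mst KO at 0.885 and in Oct4 transgenic MDSCs at 1.07, and absent in WT at 0.456 and in mdx at 0.529.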
